A study of Mus musculus with 12 samples.

Results

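The genes described here are 10 components of the Notch pathway: the receptors Notch1, Notch2 and Notch3, the ligands Jag1, Jag2 and Dll1, and the target genes Hes1, Hey1, Hey2 and Heyl. They were chosen by symbol, and all 10 were found among the 23829 genes listed at 20 weeks and the 23777 listed at 28 weeks. Messenger RNA was sequenced from primary podocytes, epithelial cells wrapped around the capillaries of the kidney glomerulus. The Nsd2 knockout mice had the genotype Cre+/Nsd2fl/fl, with deletion in podocytes, and the control mice had the genotype Cre-/Nsd2fl/fl. Nsd2 encodes a histone methyltransferase that dimethylates lysine 36 of histone H3. All mice of both genotypes carried the floxed alleles and had diabetes from a high-fat diet with streptozotocin (HFD/STZ), so there was no non-diabetic group and no Cre-positive group without floxed alleles. The 4 groups were knockouts at 20 weeks of age, controls at 20 weeks, knockouts at 28 weeks and controls at 28 weeks, with 3 libraries each. The promoter that drives Cre is not given in the labels. Whether the libraries within a group stem from different animals is not stated in the labels; p-values therefore reflect only how far these libraries vary, which could be technical variation.

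Notch signalling runs between touching cells. A Jagged or Delta-like ligand on one cell binds a Notch receptor on its neighbour, the receptor is cut by an ADAM protease and then by gamma-secretase, and the freed intracellular domain enters the nucleus, where it joins the DNA-binding protein Rbpj and Mastermind-like coactivators at target genes of the Hes and Hey families. In the developing kidney Notch2 is needed for proximal nephron segments. In the adult glomerulus the pathway has low activity in healthy podocytes, and it has been linked to podocyte injury and glomerulosclerosis in mice. Notch3 is the receptor typical of mural cells, meaning vascular smooth muscle cells, pericytes and mesangial cells.

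Total counts ran from 31405349 to 38989180 per library. Nsd2 checked the labels: it stood at 51.7, 34.0 and 45.0 counts-per-million (CPM) in knockouts 1 to 3 and at 94.2, 66.6 and 79.0 CPM in controls 1 to 3 at 20 weeks, and at 35.2, 35.2 and 42.9 CPM in knockouts and 87.2, 77.6 and 80.1 CPM in controls at 28 weeks. The transcript was thus reduced and not absent. In the edgeR test described below, Nsd2 was lower at 20 weeks (log2 fold change -0.88, adjusted p = 0.0402) and at 28 weeks (-1.11, adjusted p = 0.00431). Over the alternatives listed below, the call was kept in 7 of 15 at 20 weeks (adjusted p up to 0.164) and in 15 of 16 at 28 weeks (up to 0.0526). Markers of several cell types were detected in the libraries, and the cell types themselves were not tested. Among podocyte markers, Podxl ran from 149 to 729 CPM over the 12 libraries, but Nphs1, which encodes the slit diaphragm protein nephrin, reached only between 0.914 and 15.2 CPM. The summed level of 10 mural markers exceeded that of 10 podocyte markers in every library, but Acta2 and Tagln, actin-associated genes of contractile cells, made up between 81.2% and 92.0% of the mural sum, and without these 2 genes it exceeded the podocyte sum in 3 of the 12 libraries. The mural sum over all 10 markers, Acta2 and Tagln included, ran from 9985 to 13890 CPM in knockouts and from 4456 to 4978 CPM in controls at 20 weeks. At 28 weeks it ran from 7118 to 15900 CPM in knockouts and from 3072 to 3311 CPM in controls. Knockout library 1 of each age stood apart from the other knockouts, nearest the controls on the first principal component. Its summed epithelial (tubule, collecting duct and parietal) marker level was 1990 CPM at 20 weeks, against 382 and 303 CPM in knockouts 2 and 3, and 7292 CPM at 28 weeks, against 149.5 and 662 CPM in knockouts 2 and 3. At 28 weeks Krt8 alone made up 76.0% of the sum in knockout 1, and without Krt8 the sum was 1747 CPM, against 120 and 466 CPM in knockouts 2 and 3 and 4009 to 4616 CPM in controls. In controls the epithelial sum ran from 3015 to 6014 CPM at 20 weeks and from 4119 to 6992 CPM at 28 weeks. The podocyte sum ran from 1637 to 2258 CPM in knockouts and from 440.9 to 890.3 CPM in controls at 20 weeks. At 28 weeks it ran from 457.6 to 2074 CPM in knockouts and from 755.7 to 1420 CPM in controls. The epithelial sum exceeded it in every control and in knockout 1 of each age, and not in the other knockouts. Without Krt8, knockout 1 at 20 weeks no longer exceeded it (1010 CPM). Control libraries 2 and 3 at 28 weeks were closer to each other than any other pair of a group, with a root mean square difference of 0.13 log2 units against 0.402 to 0.857 in the other 11 pairs. They differed by more than sampling noise and were kept as separate libraries, and results at 28 weeks are also given with their counts summed.

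At 20 weeks 1 of the 10 Notch genes passed the test and was higher in the knockouts (Notch3), and none was lower. The share of all 14853 tested genes called higher at that age was 4.79%, and the share called lower was 5.13%. At 28 weeks none of the 10 was higher and 3 were lower, all of them ligands (Jag1, Jag2 and Dll1), beside 9.33% of 15011 tested genes called higher and 11.9% called lower. Calls are those of edgeR's quasi-likelihood test at an adjusted p below 0.05 (Benjamini-Hochberg, all tested genes). The median log2 fold change of the 10 genes was 0.24 at 20 weeks and -0.49 at 28 weeks, and that of all tested genes was 0.01 and 0.07 at those ages. All 10 passed the filter on low counts at both ages. Fold changes below are log2 of knockout over control with their standard error (SE). Levels are given in FPKM (fragments per kilobase of gene length, scaled to library size) for libraries 1, 2 and 3 in that order.

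**Figure D1:**
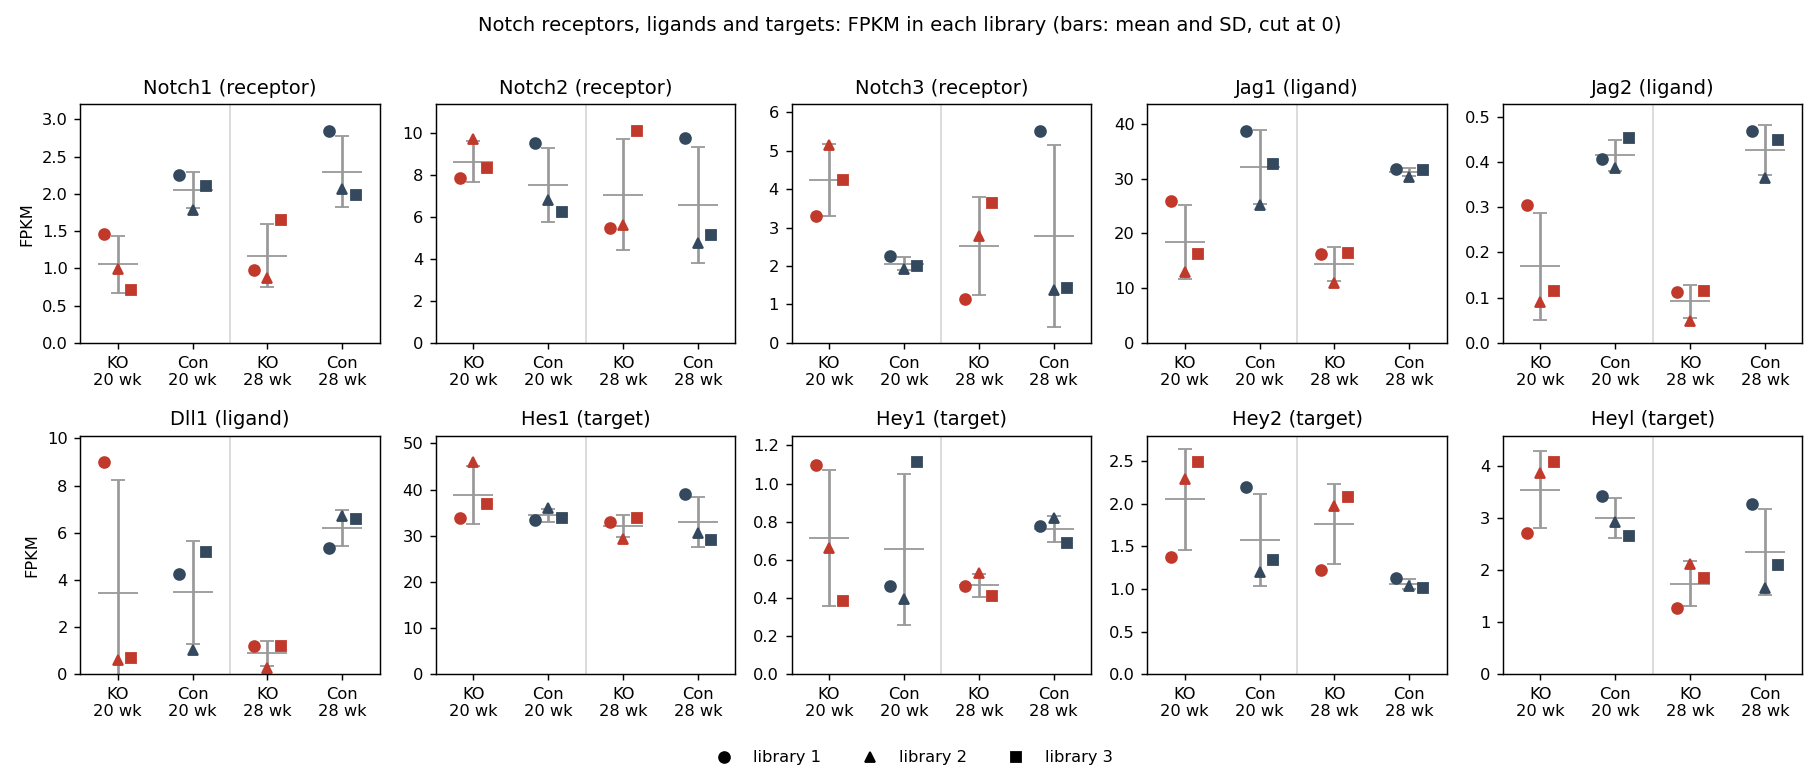
FPKM of each Notch gene (vertical axis) in every library of the 4 groups (horizontal axis; KO, Nsd2 knockout, red; Con, floxed control, dark blue; the marker shape gives the library number). Grey bars are the mean and SD of 3 libraries, cut at 0. At 28 weeks Jag1, Jag2 and Dll1 lie lower in all 3 knockouts than in any control, and at 20 weeks Notch3 lies higher in all 3 knockouts.

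Of the receptors, Notch3 passed the test at 20 weeks, and neither Notch1 nor Notch2 passed at either age. Notch3 (chr17:32120820-32166852, minus strand; coordinates throughout are those of GENCODE M21 on GRCm38) stood at 3.29, 5.16 and 4.23 FPKM in knockouts at 20 weeks, against 2.25, 1.93 and 2.00 FPKM in controls. Every knockout was above every control, and the 3 controls lay close together. The log2 fold change was 1.13 (SE 0.204, adjusted p = 0.0141). Beside it, 9 of 10 mural markers were called higher at 20 weeks, with a median log2 fold change of 1.36, and so were 6 of 10 podocyte markers, with a median of 1.13. The part of cell composition in the Notch3 result was not tested, and in bulk libraries more cells of a type and more RNA per cell cannot be told apart. The Notch3 call is also close to its threshold: it ended without control 1 (adjusted p = 0.0528), without control 2 (0.0659) and without knockout 3 (0.0519), while the log2 fold change stayed between 0.96 and 1.28 over all 6 libraries left out in turn. Exons of Notch3 overlap an antisense transcript, Gm17276, and the sources used here do not say whether counting used strand.

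At 28 weeks Notch3 had 1.15, 2.78 and 3.65 FPKM in knockouts, against 5.51, 1.38 and 1.44 FPKM in controls. The highest and the lowest of these libraries are control 1 and knockout 1. The log2 fold change of -0.08 (SE 0.67, adjusted p = 0.953) became 0.94 (adjusted p = 0.249) without control 1 and 0.29 (adjusted p = 0.805) without knockout 1. Some mural markers were ordered alike and some were not. Of the 10 mural markers at 28 weeks, control 1 was the highest control for 6 and the lowest for 4, and knockout 1 lay below every control for 4 and above every control for 5. Among those with control 1 highest is Pdgfrb, a receptor kinase marking pericytes and mesangial cells, with 26.6 CPM in knockout 1 against 140 and 147 CPM in the other knockouts, and 120.5 CPM in control 1 against 39.1 and 40.4 CPM in the other controls. Among those with control 1 lowest is Rgs5, a pericyte gene, with 100.6 CPM in knockout 1 against 294 and 141 CPM in the other knockouts, and 11.9 CPM in control 1 against 27.0 and 26.5 CPM in the other controls. Of the 10 podocyte markers, knockout 1 lay below every control for 8, and control 1 was the highest control for 9. Synpo, a podocyte actin-associated protein gene, had 48.6 CPM in knockout 1, against 322 and 265 CPM in knockouts 2 and 3, and 366.5 CPM in control 1, against 99.2 and 99.7 CPM in controls 2 and 3. The part of cell composition in the spread of Notch3 was not tested.

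Notch1 (chr2:26457903-26516663, minus strand), the receptor whose forced activation in mouse podocytes causes glomerulosclerosis, did not pass the test at either age. At 20 weeks it had 1.46, 0.995 and 0.706 FPKM in knockouts, against 2.25, 1.79 and 2.10 FPKM in controls. At 28 weeks it had 0.981, 0.872 and 1.65 FPKM in knockouts, against 2.84, 2.07 and 1.98 FPKM in controls. At both ages every knockout lay below every control. The log2 fold changes of -0.86 at 20 weeks (SE 0.285, adjusted p = 0.102) and -0.90 at 28 weeks (SE 0.29, adjusted p = 0.0744) missed the threshold. Without knockout 1 at 20 weeks the value was -1.17 (adjusted p = 0.0202), and at 28 weeks it was -1.27 without knockout 3 (adjusted p = 0.0194) and -0.88 with DESeq2 (adjusted p = 0.0224). Over all alternatives Notch1 was called in 2 of 15 at 20 weeks (adjusted p up to 0.249) and in 2 of 16 at 28 weeks (up to 0.196). Exons of Notch1 overlap 2 transcripts of the other strand, 0610009E02Rik and Gm13568.

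Notch2 (chr3:98013527-98150361, plus strand) was the receptor with the highest level. It had 7.87, 9.72 and 8.31 FPKM in knockouts, against 9.53, 6.79 and 6.23 FPKM in controls, at 20 weeks (log2 0.30, SE 0.191, adjusted p = 0.393). It had 5.48, 5.60 and 10.1 FPKM in knockouts, against 9.75, 4.77 and 5.15 FPKM in controls, at 28 weeks (log2 0.17, SE 0.37, adjusted p = 0.787). The groups overlapped at both ages, with control 1 the highest control each time. The exons share bases with Gm42820 on the same strand.

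The mix of receptors can be given as shares of the summed FPKM of the 3 receptors in each library, which does not depend on depth. At 20 weeks Notch3 made up 26.1%, 32.5% and 32.0% of receptor FPKM in knockouts, against 16.1%, 18.4% and 19.4% in controls. Notch1 made up 11.6%, 6.27% and 5.33% in knockouts, against 16.1%, 17.0% and 20.4% in controls. Neither share overlapped between the groups: by FPKM, Notch1 and Notch3 were near each other in controls, and Notch1 was the lowest of these 3 receptors in all 3 knockouts. The nearness in controls depends on the length used, which was 9489 bases for Notch1 in the FPKM against 14232 bases of GENCODE M21 exons. Per kilobase of those exons, mean Notch1 was below mean Notch3 in controls at 20 weeks too (1.365 against 2.132). In knockouts the rescaled means were 0.703 and 4.368. At 28 weeks the Notch1 share was 12.9%, 9.43% and 10.7% in knockouts, against 15.7%, 25.2% and 23.1% in controls, again without overlap. The Notch3 share overlapped at 28 weeks, with 15.1%, 30.1% and 23.7% in knockouts, against 30.4%, 16.7% and 16.8% in controls. Notch2 held between 53.8% and 72.0% of receptor FPKM in all 12 libraries. These shares are descriptions of the same counts and were not tested.

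The ligands, which sit on the sending cell, were lower in knockouts at 28 weeks. Jag1 (chr2:137081456-137116644, minus strand), the ligand mutated in Alagille syndrome in humans, had 16.2, 10.9 and 16.4 FPKM in knockouts at 28 weeks, against 31.7, 30.3 and 31.5 FPKM in controls. All 3 knockouts lay near one another and far below the 3 controls, which differed little among themselves. The log2 fold change was -1.03 (SE 0.179, adjusted p = 0.0112). At 20 weeks Jag1 had 25.9, 12.9 and 16.3 FPKM in knockouts, against 38.7, 25.2 and 32.7 FPKM in controls. Knockout 1 was just above the lowest control there, so the groups overlapped, and the log2 fold change of -0.71 did not pass (SE 0.276, adjusted p = 0.155).

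Jag2 (chr12:112907819-112929776, minus strand), the second Jagged ligand, was at the edge of detection. It had 0.112, 0.0495 and 0.115 FPKM in knockouts at 28 weeks, from 8 to 21 counts a library, against 0.468, 0.364 and 0.448 FPKM in controls, from 73 to 94 counts. The groups were well apart, with a log2 fold change of -2.12 (SE 0.391, adjusted p = 0.0132). At 20 weeks it had 0.305, 0.0896 and 0.114 FPKM in knockouts, against 0.406, 0.387 and 0.453 FPKM in controls. Every knockout lay below every control at 20 weeks too, with knockout 1 nearest to them, but the log2 fold change of -1.19 did not pass (SE 0.501, adjusted p = 0.185).

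Dll1 (chr17:15367354-15376872, minus strand), a Delta-like ligand, had the greatest spread of the 10 genes. At 28 weeks it had 1.20, 0.281 and 1.20 FPKM in knockouts, against 5.34, 6.72 and 6.58 FPKM in controls. All knockouts lay below all controls, and the log2 fold change was -2.71 (SE 0.52, adjusted p = 0.015). At 20 weeks it had 8.98, 0.627 and 0.695 FPKM in knockouts, against 4.23, 1.03 and 5.18 FPKM in controls. Knockout 1 was the highest of all 12 libraries, while knockouts 2 and 3 lay below every control of that age. The log2 fold change was 0.08 (SE 1.02, adjusted p = 0.977). Exons of Dll1 overlap A930024N18Rik on the other strand.

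The ligand result at 20 weeks turned on knockout 1. Without that library Jag1 was at -1.05 (adjusted p = 0.0213), Jag2 at -1.93 (0.0236) and Dll1 at -2.30 (0.044), and Notch1 was called lower as well. The count of all genes called also moved with the library left out, and the share called lower in that fit is not given here. At 28 weeks the calls of all 3 ligands were kept without knockout 1 (log2 -1.13 for Jag1, -2.29 for Jag2 and -2.99 for Dll1; adjusted p = 0.0197, 0.0229 and 0.0262). They ended without control 3 (adjusted p = 0.0503 for Jag1, 0.058 for Jag2 and 0.0556 for Dll1), and that of Dll1 also ended without control 2 (0.0542). With control libraries 2 and 3 summed, Jag1 was at -1.05 (adjusted p = 0.0471), Jag2 at -2.17 (0.0494) and Dll1 at -2.67 (0.055), so the sizes were nearly as before and the Dll1 call ended.

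Epithelial marker sums were also low in most knockout libraries. At 20 weeks 4 of 11 tested epithelial markers were called lower and at 28 weeks 3 of 12, with median log2 fold changes of -1.70 and -1.50. Knockout 1 at 28 weeks, with Jag1, Jag2 and Dll1 as low as in knockout 3, had an epithelial sum above every control of that age, but without Krt8 its sum lay below every control. Within that library 4 of the 12 listed epithelial markers lay above every control and 6 below: Krt8 and Epcam, a keratin and an adhesion molecule of simple epithelia, had 5545 and 478 CPM, against up to 2376 and 375 CPM in controls, and Cdh16, a cadherin of kidney tubules, had 52.3 CPM, against 358.5 to 644 CPM in controls. At 20 weeks knockout 1 had 115 CPM of Cdh16, against 32.1 and 27.1 CPM in knockouts 2 and 3 and 178 to 248 CPM in controls. Of 36 markers that could be compared, Cdh16 was the one whose profile over the 12 libraries was nearest to Dll1 and to Jag2, with root mean square differences of 0.88 and 0.73 log2 units, where the genes' own spreads over the 12 libraries (SD) were 1.58 and 1.01. For Jag1 no marker came closer than 0.64 log2 units (Pax8), which is more than its own SD of 0.56. The part of cell composition in the ligand results was not tested.

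The sequences before the start sites of the ligands are shown because these 3 genes were called together. They are RefSeq windows on GRCm38.p6, from 250 bases before to 20 bases after the annotated start, printed 5′ to 3′ on the gene's own strand. For Dll1, which has a pair of windows, the one next to the GENCODE gene start is given. The windows lie at chr2:137116501-137116770 (Jag1), chr12:112929476-112929745 (Jag2) and chr17:15376913-15377182 (Dll1), all on the minus strand.
Jag1: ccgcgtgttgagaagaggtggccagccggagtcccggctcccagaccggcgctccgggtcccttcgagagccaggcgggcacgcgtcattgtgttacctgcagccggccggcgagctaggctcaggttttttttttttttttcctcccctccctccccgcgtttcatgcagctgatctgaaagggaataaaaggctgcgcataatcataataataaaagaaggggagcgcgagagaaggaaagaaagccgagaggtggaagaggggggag
Jag2: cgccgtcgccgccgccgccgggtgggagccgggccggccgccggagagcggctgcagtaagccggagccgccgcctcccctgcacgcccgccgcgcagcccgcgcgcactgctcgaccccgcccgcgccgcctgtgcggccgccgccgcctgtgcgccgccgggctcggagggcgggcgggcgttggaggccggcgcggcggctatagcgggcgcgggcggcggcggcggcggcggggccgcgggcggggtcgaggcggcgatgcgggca
Dll1: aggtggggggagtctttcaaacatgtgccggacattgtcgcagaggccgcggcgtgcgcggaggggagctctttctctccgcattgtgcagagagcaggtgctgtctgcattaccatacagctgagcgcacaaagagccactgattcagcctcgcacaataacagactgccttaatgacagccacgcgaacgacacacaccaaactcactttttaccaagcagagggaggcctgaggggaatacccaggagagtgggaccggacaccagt
Capitals would mark either of the motifs searched, GTGGGAA, the site bound by Rbpj, and GGAATG, the site bound by the TEAD factors of the Hippo pathway, on both strands, and none of the 3 ligand windows holds either. No match says only that these letters are not in these windows. The full windows of 300 bases differ in composition: G and C make up 86.0% of that of Jag2, with 63 CpG sites, against 55.7% and 22 CpG sites for Jag1 and 56.3% and 15 CpG sites for Dll1. The medians over all 32851 windows of the RefSeq table are 52.7% and 7 CpG sites. The table matched 7 of the 10 genes. Among the others it matched, the windows of Notch2 and Notch3 hold neither motif and that of Notch1 holds 2 GGAATG matches. GTGGGAA was found in 6.38% of all windows, its core TGGGAA in 25.6% and GGAATG in 14.7%.

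**Figure D2:**
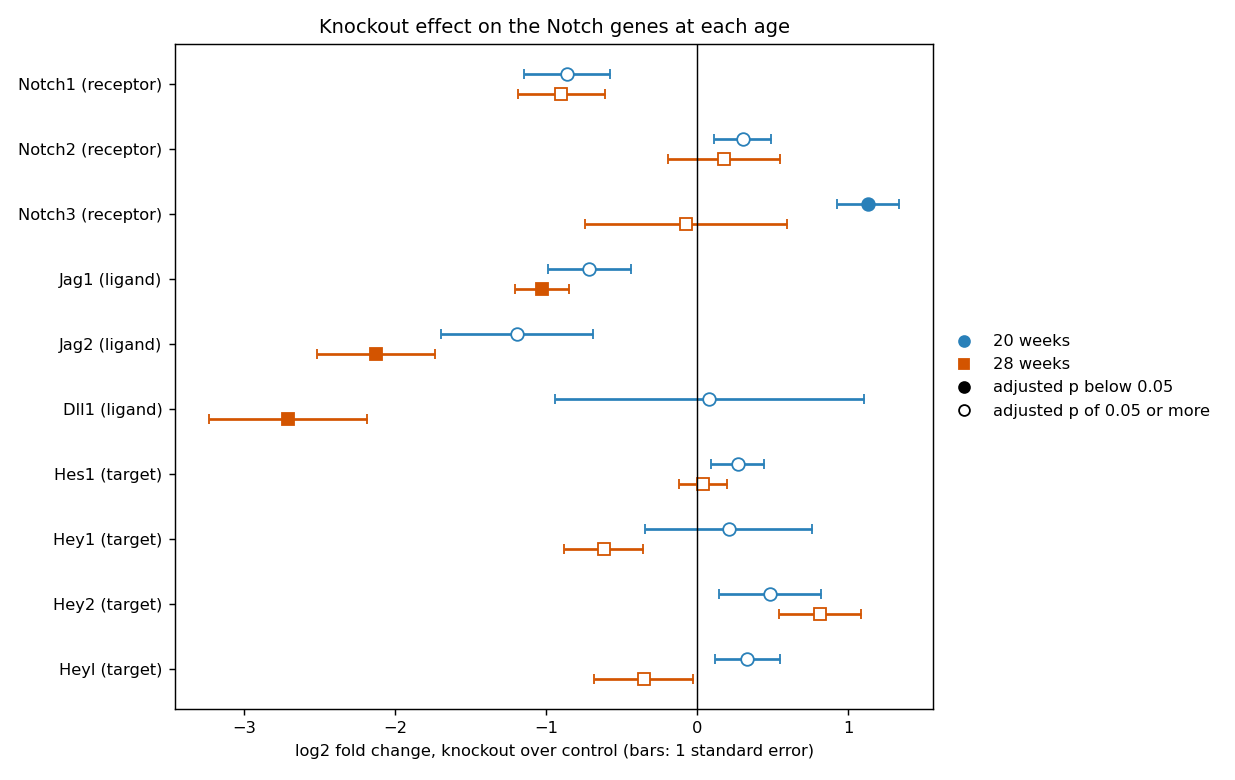
Log2 fold change of knockout over control (horizontal axis) for each Notch gene, at 20 weeks (blue circles) and 28 weeks (orange squares), with bars of 1 SE; filled symbols passed an adjusted p of 0.05. The 3 ligands at 28 weeks lie between -1.03 and -2.71, Notch3 at 20 weeks lies at 1.13, and no target gene is filled.

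None of the 4 target genes passed the test at either age. Hes1 (chr16:30064384-30067796, plus strand), a repressor of the basic helix-loop-helix class and a common readout of Notch activity, had 33.8, 45.9 and 36.9 FPKM in knockouts at 20 weeks, against 33.4, 35.9 and 33.9 FPKM in controls. Its levels at 28 weeks were 33.0, 29.3 and 33.9 FPKM in knockouts, against 39.2, 30.7 and 29.2 FPKM in controls. The groups overlapped at both ages, with log2 fold changes of 0.27 (SE 0.175, adjusted p = 0.41) and 0.04 (SE 0.158, adjusted p = 0.897). Its SD over the 12 libraries was 0.17 log2 units, the smallest of the 10 genes.

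Hey1 (chr3:8663359-8667256, minus strand), a Hes-related repressor, was detected with 33 to 101 counts a library. It had 1.10, 0.665 and 0.384 FPKM in knockouts, against 0.462, 0.396 and 1.11 FPKM in controls, at 20 weeks, where both groups spread widely (log2 0.21, SE 0.551, adjusted p = 0.866). Hey1 had, at 28 weeks, 0.464, 0.529 and 0.409 FPKM in knockouts, against 0.778, 0.821 and 0.688 FPKM in controls. All knockouts lay below all controls at that age, without passing the test (log2 -0.62, SE 0.259, adjusted p = 0.145). On the log2(FPKM + 1) scale limma gave -0.26 (adjusted p = 0.0223), the 1 alternative of 16 in which Hey1 passed at 28 weeks.

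Hey2 (chr10:30832359-30842801, minus strand), a Hes-related repressor known from vascular and heart development, had 1.38, 2.29 and 2.48 FPKM in knockouts, against 2.19, 1.20 and 1.34 FPKM in controls, at 20 weeks (log2 0.48, SE 0.339, adjusted p = 0.444). The levels at 28 weeks were 1.22, 1.97 and 2.08 FPKM in knockouts, against 1.12, 1.03 and 1.01 FPKM in controls. All knockouts lay above all controls at 28 weeks, knockout 1 only just. The log2 fold change was 0.81 (SE 0.27, adjusted p = 0.0818), and it was 1.00 without knockout 1 (adjusted p = 0.0235) and 0.83 with DESeq2 (adjusted p = 0.0193). Hey2 passed at 28 weeks in these 2 of 16 alternatives only, with adjusted p up to 0.255 over the 16. Of the 36 markers, Mcam, an adhesion molecule of mural cells, had the nearest profile to Hey2 (0.34 log2 units, where the SD of Hey2 was 0.46). The RefSeq window of Hey2 (chr10:30842764-30843033, minus strand, 250 bases before to 20 after the start, GRCm38.p6) is shown because, alone among the 7 genes matched, it holds the Rbpj site.
Hey2: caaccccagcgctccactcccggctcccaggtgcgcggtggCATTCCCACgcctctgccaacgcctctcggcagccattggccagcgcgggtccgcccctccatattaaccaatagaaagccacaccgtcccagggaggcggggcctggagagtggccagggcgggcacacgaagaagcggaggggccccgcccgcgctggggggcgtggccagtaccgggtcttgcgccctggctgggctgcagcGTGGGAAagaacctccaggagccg
The capitals near its 3′ end are a GTGGGAA that begins 4 bases before the start site on the gene's strand. The other run of capitals joins a GTGGGAA on the opposite strand, 207 bases before the start, to an overlapping GGAATG on the opposite strand, 209 bases before the start. A match describes the letters and is not evidence of binding.

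Heyl (chr4:123233556-123249875, plus strand), a Hes-related gene expressed in mural cells, had 2.71, 3.87 and 4.08 FPKM in knockouts, against 3.43, 2.94 and 2.67 FPKM in controls, at 20 weeks (log2 0.33, SE 0.217, adjusted p = 0.405). Heyl had, at 28 weeks, 1.28, 2.11 and 1.85 FPKM in knockouts, against 3.28, 1.67 and 2.11 FPKM in controls (log2 -0.36, SE 0.328, adjusted p = 0.5). The groups overlapped at both ages. At 28 weeks control 1 was the highest library and knockout 1 the lowest, as for Notch3.

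**Figure D3:**
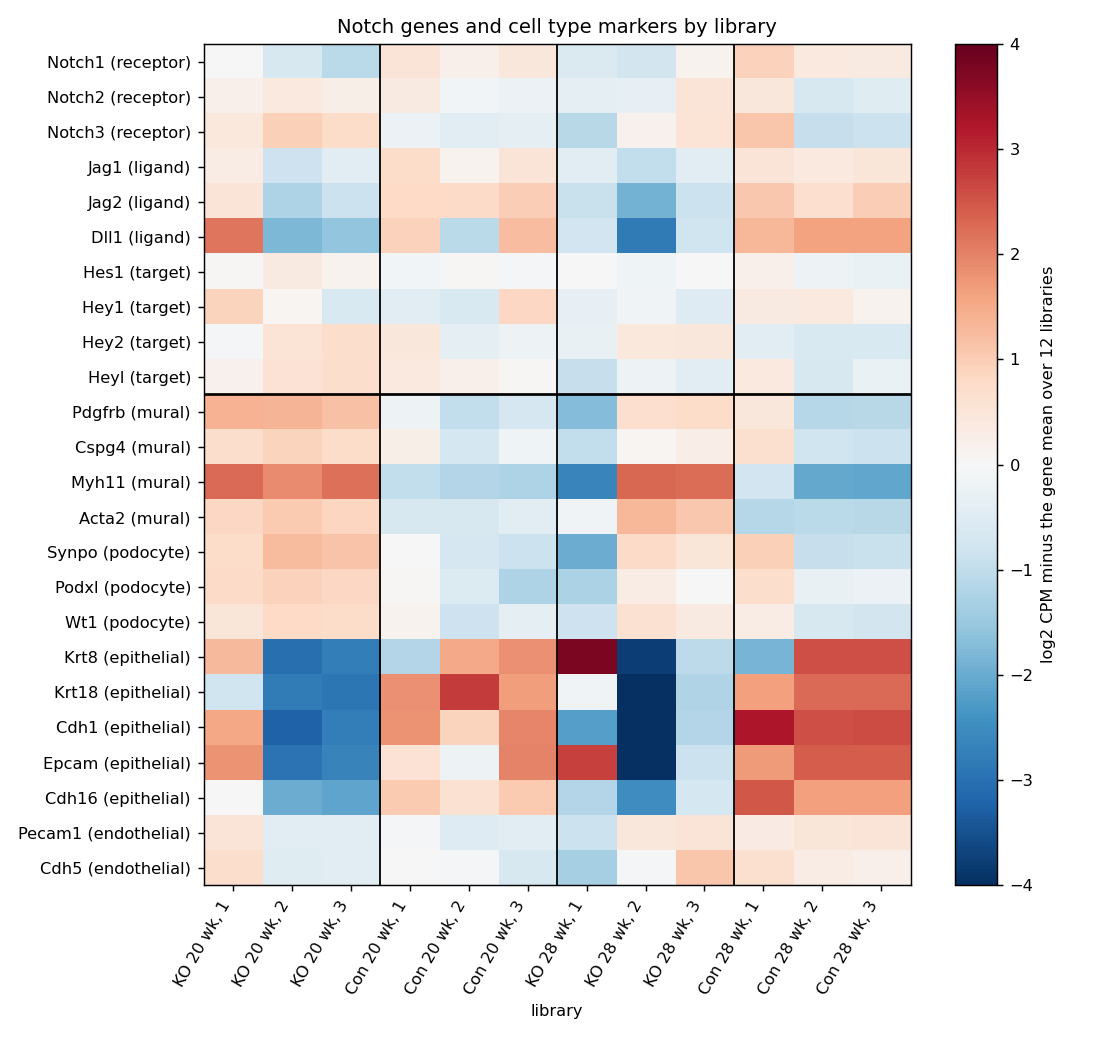
Log2 CPM minus the gene's mean over the 12 libraries (colour scale, red above and blue below the mean) for the 10 Notch genes and 14 cell type markers (rows) in each library (columns; KO, Nsd2 knockout; Con, floxed control; wk, weeks of age). The markers of a type do not all run together: in knockout 1 at 28 weeks Pdgfrb and Myh11 lie below every control of that age and Acta2 above, and Cdh1 lies below and Krt8 above. Jag1, Jag2 and Dll1 are as low there as in knockout 3, and Dll1 is highest in knockout 1 at 20 weeks.

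The order of levels was much the same in the 4 groups. Hes1, Jag1 and Notch2 were the 3 highest in each and Hey1 and Jag2 the 2 lowest. By mean, Hes1 had 38.8 ± 6.31 FPKM in knockouts and 34.4 ± 1.35 FPKM in controls at 20 weeks, and 32.1 ± 2.44 FPKM in knockouts and 33.0 ± 5.37 FPKM in controls at 28 weeks (SD, n = 3 each). Jag1 had 18.4 ± 6.74 FPKM in knockouts and 32.2 ± 6.75 FPKM in controls at 20 weeks, and 14.5 ± 3.11 FPKM in knockouts and 31.2 ± 0.756 FPKM in controls at 28 weeks. The ranges of Hes1 and Jag1 did not overlap in the knockouts of either age and overlapped in the controls of both. That order depends on the length used: the FPKM values of Jag1 imply 11717 bases, whereas its GENCODE M21 exons cover 5827. Per kilobase of the latter, Jag1 ranked above Hes1 in every group, at a rescaled level of 29.1 ± 6.25 FPKM in knockouts and 62.7 ± 1.53 FPKM in controls at 28 weeks (SD, n = 3 each). Fold changes do not depend on the length. Below Notch2 the order differed among groups: Notch3 came next in the knockouts of both ages and Dll1 came next in the controls of both. Among the 4 genes that followed Notch2 in each group, the ranges of neighbours overlapped except those of Heyl and Notch3 in controls at 20 weeks.

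Jag1 made up most of the ligand level, between 73.6% and 97.1% of the summed FPKM of the 3 ligands. That sum was 35.2, 13.6 and 17.1 FPKM in knockouts, against 43.3, 26.6 and 38.3 FPKM in controls, at 20 weeks. At 28 weeks it was 17.5, 11.2 and 17.7 FPKM in knockouts, against 37.5, 37.4 and 38.5 FPKM in controls. The groups overlapped at 20 weeks through knockout 1 and were apart at 28 weeks. Hes1 made up between 84.2% and 91.8% of the summed FPKM of the 4 targets.

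Whether the knockout effect differed between ages was tested in a model of all 12 libraries as the fold change at 28 weeks minus that at 20 weeks. None of the 10 genes was called, and none of 15662 genes was (0%), although 1428 had an unadjusted p below 0.05 and DESeq2 called 34. The largest values among the Notch genes were -2.82 for Dll1 (SE 1.38, adjusted p = 0.567), -1.18 for Notch3 (SE 0.746, adjusted p = 0.61) and -0.94 for Jag2 (SE 0.665, adjusted p = 0.637). For Jag1 it was -0.32 (SE 0.378, adjusted p = 0.767). The calls at 28 weeks alone (ligands) and at 20 weeks alone (Notch3) are thus not shown to differ between the ages.

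Age was compared within each genotype in the same model, where age and deposited table coincide, so that handling of the tables cannot be told apart from age. In knockouts at 28 weeks over 20 weeks, none of the 10 genes was called (0% of all genes), with 1759 genes at an unadjusted p below 0.05 and 40 called by DESeq2. Heyl had the smallest p among them, with 1.28, 2.11 and 1.85 FPKM at 28 weeks, against 2.71, 3.87 and 4.08 FPKM at 20 weeks. The 3 libraries at 28 weeks lay below the 3 at 20 weeks (log2 -0.997, SE 0.279, adjusted p = 0.429). Dll1 was at -1.96 (SE 0.996, adjusted p = 0.457), with knockout 1 at 20 weeks, at 8.98 FPKM, far above the other 5 knockouts. In controls none of the 10 was called either (0% of all genes), with 466 genes at an unadjusted p below 0.05 and 1 called by DESeq2. The values of the 10 genes in controls lay between -0.55 (Hey2) and 0.86 (Dll1).

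The rest of the pathway was followed through 51 further genes, of which 46 were tested at each age. At 20 weeks 3 were higher and 3 lower in knockouts, with a median log2 fold change of 0.08. At 28 weeks 1 was higher and 8 were lower, with a median of -0.04. As shares these are 6.52% higher and 6.52% lower at 20 weeks, beside the 4.79% and 5.13% of all genes given above, and 2.17% higher and 17.4% lower at 28 weeks, beside 9.33% and 11.9%.

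Among glycosyltransferases, which add sugars to the receptors and set which ligands they answer to, 2 of 5 were higher at 20 weeks. Lfng, the Fringe enzyme that favours Delta over Jagged signals, had 21.3, 22.9 and 19.1 FPKM in knockouts, against 9.54, 6.31 and 9.29 FPKM in controls (log2 1.43, SE 0.203, adjusted p = 0.00662). All knockouts were well above all controls, and the call was kept under each of the 13 alternatives in which it was tested. Pofut1, which adds the O-fucose that Fringe extends, had 5.73, 6.32 and 5.89 FPKM in knockouts, against 3.54, 3.65 and 4.02 FPKM in controls (log2 0.77, SE 0.157, adjusted p = 0.022). Its call ended without control 1 (adjusted p = 0.0776), without control 2 (0.0931) and without knockout 3 (0.0552). At 28 weeks neither passed, with log2 0.45 (SE 0.243, adjusted p = 0.247) for Lfng and 0.46 (SE 0.244, adjusted p = 0.24) for Pofut1. The change of the Lfng effect between ages was -0.96 (SE 0.317, adjusted p = 0.538).

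In the nuclear complex 1 of 8 genes was higher at 20 weeks and 2 of 8 lower at 28 weeks. Maml3, a Mastermind-like coactivator, had 3.93, 4.39 and 4.47 FPKM in knockouts at 20 weeks, against 2.86, 1.02 and 1.52 FPKM in controls (log2 1.35, SE 0.334, adjusted p = 0.0416). Spen, a corepressor that binds Rbpj, was lower at 28 weeks, with 2.19, 2.51 and 1.90 FPKM in knockouts, against 4.61, 3.38 and 3.67 FPKM in controls (log2 -0.74, SE 0.187, adjusted p = 0.0352). Ep300, a histone acetyltransferase recruited by the active complex, was lower at 28 weeks, with 4.30, 4.59 and 5.50 FPKM in knockouts, against 8.65, 6.96 and 7.11 FPKM in controls (log2 -0.58, SE 0.155, adjusted p = 0.0423). The groups did not overlap for any of these. The 3 calls are near the threshold: that of Maml3 ended without control 2 or 3 and without knockout 2 or 3, that of Spen without any of the 3 controls and without knockout 3, and that of Ep300 without any 1 of 5 libraries, all but knockout 3. Over all alternatives in which it was tested the call was kept in 5 of 15 for Maml3 (adjusted p up to 0.121), 8 of 14 for Spen (up to 0.13) and 7 of 16 for Ep300 (up to 0.17).

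In receptor processing 1 of 10 genes was called. Furin, the protease that makes the first cut of the receptor in the Golgi, was lower at 28 weeks, with 16.5, 20.6 and 19.9 FPKM in knockouts, against 41.7, 33.6 and 30.8 FPKM in controls (log2 -0.82, SE 0.166, adjusted p = 0.018; without control 2, 0.0559). Over 16 alternatives the Furin call was kept in 14 (adjusted p up to 0.113). No ADAM protease or gamma-secretase gene was called at either age. Among 12 tested genes of endocytosis and ubiquitin ligation, Neurl3, a Neuralized-family ligase, was lower at 20 weeks, with 0.629, 0.594 and 0.406 FPKM in knockouts, against 0.835, 3.17 and 3.08 FPKM in controls (log2 -2.04, SE 0.526, adjusted p = 0.0478). Control 1 lay near the knockouts, and the Neurl3 call ended in each of the 6 fits with a library left out except that without control 1. It was kept in 6 of 15 alternatives in all (adjusted p up to 0.151). Dtx4, a Deltex ligase, was lower at 28 weeks, with 3.15, 3.92 and 4.58 FPKM in knockouts, against 8.72, 7.67 and 7.33 FPKM in controls (log2 -0.95, SE 0.172, adjusted p = 0.0126). Over 16 alternatives the Dtx4 call was kept in 15 (adjusted p up to 0.0909). At 20 weeks Dtx4 was at -0.85 (SE 0.23, adjusted p = 0.0565). The remaining receptors and ligands gave no call: Dll4, a Delta-like ligand known from vessels, was at -0.20 at 20 weeks and -0.70 at 28 weeks (adjusted p = 0.736 and 0.172), and Notch4 at 0.08 and -0.04 (0.904 and 0.964).

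**Figure D4:**
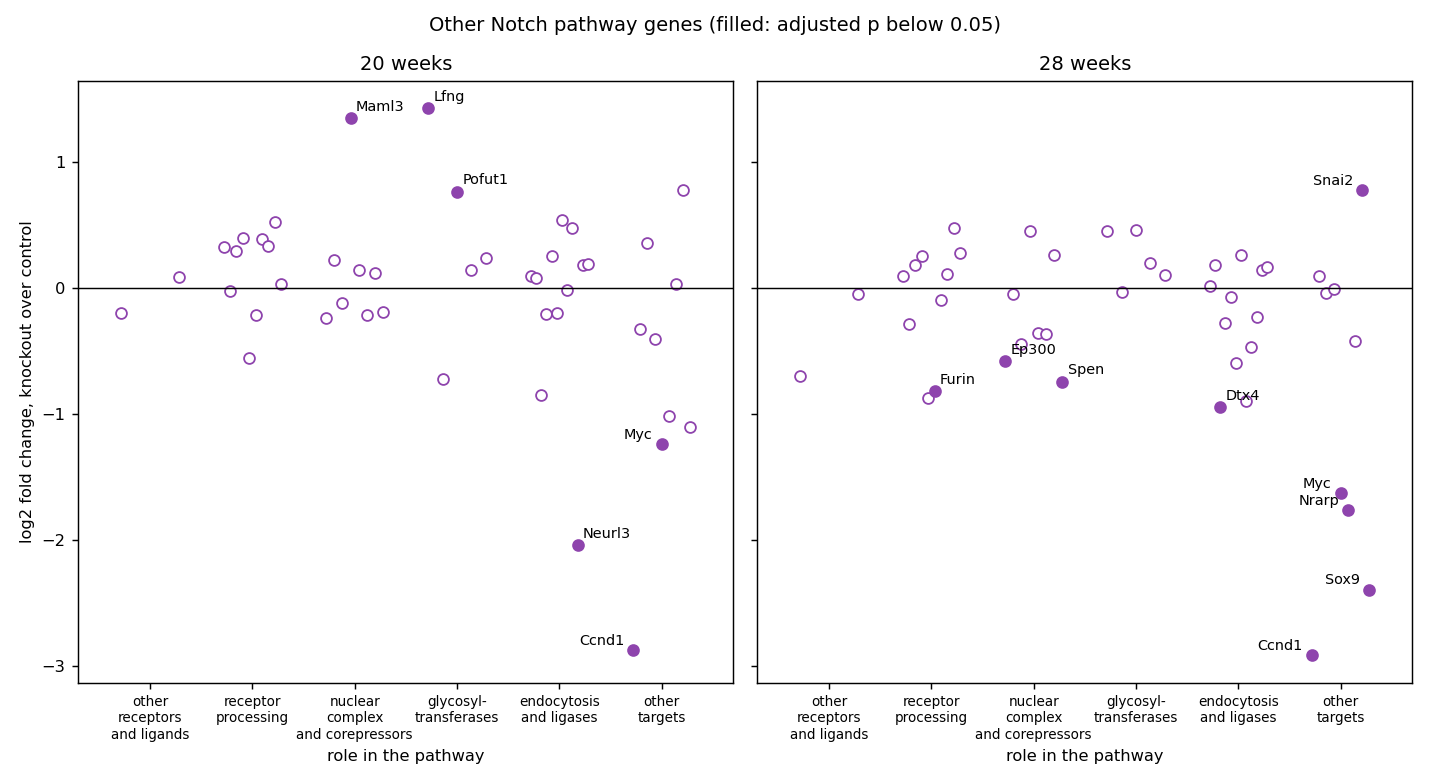
Log2 fold change of knockout over control (vertical axis) of the 46 tested further pathway genes at 20 weeks (left) and 28 weeks (right), by role (horizontal axis); filled symbols passed an adjusted p of 0.05 and are named. At 20 weeks 3 lie above 0 and 3 below among the filled symbols, and at 28 weeks 1 lies above and 8 below, with Ccnd1 the lowest at both ages.

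Among 9 tested further target genes 2 were lower at 20 weeks, and 4 were lower and 1 higher at 28 weeks. Nrarp, which encodes an ankyrin repeat protein induced by Notch that dampens the pathway, had 0.784, 0.728 and 1.05 FPKM in knockouts at 28 weeks, against 3.52, 2.74 and 2.95 FPKM in controls. The groups were far apart (log2 -1.77, SE 0.242, adjusted p = 0.00634), and the call was kept with each library left out. Over all alternatives in which it was tested, the Nrarp call was kept in 13 of 14 (adjusted p up to 0.0579). At 20 weeks Nrarp had 2.05, 0.819 and 0.977 FPKM in knockouts, against 3.52, 1.70 and 3.14 FPKM in controls, overlapping through knockout 1 (log2 -1.02, SE 0.429, adjusted p = 0.186).

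Ccnd1, Myc and Sox9 are targets shared with other pathways. Ccnd1, cyclin D1, had 48.4, 35.3 and 33.2 FPKM in knockouts, against 295, 437 and 185 FPKM in controls, at 20 weeks (log2 -2.88, SE 0.331, adjusted p = 0.00349). At 28 weeks it had 95.1, 14.5 and 42.1 FPKM in knockouts, against 399, 406 and 412 FPKM in controls (log2 -2.92, SE 0.64, adjusted p = 0.0229). Its call was kept with each library left out at 20 weeks, and ended without any of the 3 controls and without knockout 3 at 28 weeks (highest adjusted p = 0.0705). Myc, a growth-promoting transcription factor, was lower at both ages (log2 -1.24, SE 0.271, adjusted p = 0.0277 at 20 weeks; log2 -1.63, SE 0.232, adjusted p = 0.00684 at 28 weeks). At 20 weeks the Myc call ended without control 1 (adjusted p = 0.123), control 2 (0.0787), knockout 2 (0.092) and knockout 3 (0.085). Sox9, a transcription factor of kidney development and repair, had 2.49, 1.13 and 3.58 FPKM in knockouts, against 15.0, 12.7 and 12.4 FPKM in controls, at 28 weeks (log2 -2.40, SE 0.40, adjusted p = 0.0101), and the call was kept with each library left out. Over all alternatives the Sox9 call was kept in 15 of 16 (adjusted p up to 0.0537). The single gene higher at 28 weeks was Snai2, a zinc finger repressor of epithelial genes (log2 0.78, SE 0.217, adjusted p = 0.0485), named after its values had been seen. Its call was kept in 5 of 16 alternatives (adjusted p up to 0.177).

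Likeness of profile was measured as the root mean square difference of log2 CPM, each gene centred on its own mean, over the 12 libraries and 10775 genes. The 5 genes nearest to Notch3 were Sgsh (0.165 log2 units), Magee1 (0.17), Ttc28 (0.191), Lamc1 (0.214) and Marveld1 (0.216), where the median gene was at 0.788. Those nearest to Jag1 were Runx1 (0.115), Sestd1 (0.143), Etv4 (0.151), Stox2 (0.158) and Atp11a (0.162), with the median gene at 0.65. Those nearest to Heyl were Tnrc6c (0.171), Gas7 (0.177), Zcchc14 (0.184), Map3k5 (0.189) and Nol4l (0.191), with the median gene at 0.569. The libraries differ in genotype, age, depth and cell type marker levels, so these distances are descriptions and were not tested.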

How the data were processed

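Per the labels' protocols, a Qiagen RNeasy kit gave the RNA and a SMARTER mRNA kit the libraries. The authors deposited, for each age, raw read counts by gene symbol and FPKM values, in which those counts are scaled by gene length and column total. Per the submitters' processing notes the build was GRCm38 (mm10). The sources used here do not give the aligner, the counter or its strand setting. The labels state no batch that differs between libraries.

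Per age, edgeR 4.0.16 (R 4.3.3) was run on the counts (TMM scaling, filterByExpr, quasi-likelihood F test, 3 knockout against 3 control libraries, no block), and adjusted p-values are from this test over all tested genes unless another tool is named. SE is the size of the log2 fold change over the root of the F statistic. A joint model of the 12 libraries, on the 22290 genes that both tables list, gave the difference between the knockout effects at the 2 ages and the age contrasts within a genotype. CPM values used TMM-scaled library sizes. At 3 counts as the limit that a count of 0 allows, the floor was 0.0732 to 0.0989 CPM per library, for counting error only.

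The alternatives were RLE and total-count scaling, DESeq2 1.42.0, limma 3.58.1 on log2(FPKM + 0.1) and log2(FPKM + 1), no filter, a filter of 1 CPM in 3 libraries, a replicate block, each library left out, and control libraries 2 and 3 at 28 weeks summed. The 10 genes, the further pathway list and the marker lists were chosen with earlier results of these data known, 1 podocyte marker is not reported here by name, and the GGAATG motif, the marker sums without single genes and the alternatives for the age contrasts were added after seeing the data. Named were the 10 genes whatever their p, and up to 4 called genes per role of the further list, smallest p first, or 2 at most as values in a role without a call. Gene positions are from GENCODE M21 and promoter sequences from RefSeq (GRCm38.p6).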

Additional observations from a re-analysis of the deposited data

How the results depend on the processing

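The direction of the Jag1, Jag2 and Dll1 differences at 28 weeks, and of Notch3 at 20 weeks, was kept under every alternative in which they were tested; their side of the threshold was not. Over 16 alternatives Jag1 at 28 weeks lay between -1.16 and -0.88 (adjusted p up to 0.0633) and Jag2 between -2.35 and -0.39 (up to 0.0646), the smallest size on log2(FPKM + 1), which understates changes of low genes; Dll1 lay between -3.02 and -2.31 over 14 (up to 0.0858). Over 15 alternatives Notch3 at 20 weeks lay between 0.76 and 1.28 (adjusted p up to 0.223).

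Counts of calls moved as follows. At 20 weeks DESeq2 called 2430 genes in place of 1473, and with a library left out the count ran from 517 to 2023. The number of Notch genes called higher at 20 weeks, 1 above, became 0 with limma on log2(FPKM + 0.1) and log2(FPKM + 1), 0 in the model of all 12 libraries (log2 1.08, adjusted p = 0.223), and 0 to 1 with a library left out. The number called lower at 20 weeks, 0 above, was 1 with DESeq2 (Notch1, -0.86, adjusted p = 0.0356) and 0 to 4 with a library left out. At 28 weeks the count of genes was 1266 to 3374 with a library left out and 1299 with control libraries 2 and 3 summed, in place of 3183. The number of Notch genes called higher at 28 weeks, 0 above, was 1 with DESeq2 (Hey2, 0.83, adjusted p = 0.0193) and 0 to 1 with a library left out, and the number called lower, 3 above, was 0 to 4 with a library left out. For the difference of knockout effects between ages DESeq2 called 34 genes, for age within controls 1 and for age within knockouts 40, none of them a Notch gene, and age within knockouts gave 0 to 4 genes with a library left out.

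With the replicate number as a block, 332 genes were called at 28 weeks and 0 of the 10 Notch genes was lower (Jag1 -1.05, adjusted p = 0.0633; Jag2 -2.19, 0.0646; Dll1 -2.92, 0.0704), and 1164 genes were called at 20 weeks. The labels state no pairing by number. Correlations of same-numbered deviations were -0.0426, 0.431 and -0.063 at 20 weeks and -0.639, -0.214 and -0.582 at 28 weeks. Not every library correlated best with its own number. The deviations were centred within groups of 3 libraries, so these correlations cannot exclude pairing.

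Values without a call changed sign under some alternatives. At 20 weeks Dll1 was at -0.020 with library totals alone, -0.71 with the replicate block, and -2.30 to 0.58 with a library left out, and Hey1 ran from -0.24 to 0.85 with a library left out. At 28 weeks Hes1 was at -0.040 with library totals alone, -0.031 on log2(FPKM + 0.1), -0.030 on log2(FPKM + 1), -0.041 with control libraries 2 and 3 summed, and -0.051 to 0.20 with a library left out. Notch3 at 28 weeks was at 0.027 on log2(FPKM + 0.1), 0.00055 on log2(FPKM + 1), 0.23 with the replicate block, and -0.45 to 0.94 with a library left out. Notch2 at 28 weeks was at -0.0031 with control libraries 2 and 3 summed and -0.20 to 0.60 with a library left out. For the change between ages, leaving out a library gave -0.36 to 0.32 for Notch1, -0.45 to 0.30 for Notch2 and -0.54 to 0.050 for Jag1. The cause of these changes was not tested. Leaving out a library left a group with 2. Depth limits Jag2 (8 to 94 counts a library) and Hey1 (33 to 101).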

Other observations

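Of 36 markers compared over the 12 libraries, the nearest in profile to Notch3 was Cspg4, a proteoglycan of pericytes, at 0.252 log2 units, where the SD of Notch3 was 0.732, followed by Magi2 and Wt1, both podocyte markers, at 0.336 and 0.343. The nearest to Notch2 was Mcam, at 0.252, where the SD of Notch2 was 0.384. The nearest to Heyl was Magi2, at 0.399, where the SD of Heyl was 0.48. For Notch1, Jag1, Hes1 and Hey1 no marker came closer than the gene's own SD. These distances are over libraries that differ in genotype, age and depth, and were not tested.

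Over 10 endothelial markers the summed level ran from 80.5 to 122.9 CPM in knockouts and from 77.3 to 92.8 CPM in controls at 20 weeks, and from 60.5 to 154 CPM in knockouts and from 109.6 to 111 CPM in controls at 28 weeks. Over 6 leukocyte markers it ran from 16.6 to 37.9 CPM in knockouts and from 13.0 to 99.0 CPM in controls at 20 weeks, and from 33.6 to 72.0 CPM in knockouts and from 17.0 to 24.7 CPM in controls at 28 weeks. At 28 weeks every knockout sum exceeded every control sum, and 2 of 5 tested leukocyte markers were called higher, Adgre1 (log2 2.31, SE 0.252, adjusted p = 0.00389) and Tyrobp (log2 1.88, SE 0.476, adjusted p = 0.0358), with a median log2 fold change of 1.65 over the 5; both were chosen after their values were seen. At 20 weeks 0 of the 5 were called by edgeR and 1, Ptprc, was under 0.05 before adjustment (log2 -1.43, SE 0.571, adjusted p = 0.167), with a median of -0.76.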
